A study of Homo sapiens with 6 samples.

Results

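The genes described here encode the noncollagen part of the extracellular matrix: adhesive and matricellular glycoproteins, elastic fibre and microfibril proteins, small leucine-rich and large proteoglycans, syndecans, glypicans, laminin chains and the proteins that link basement membranes. They were picked by gene symbol from a list of 52 such genes, and all 52 were found among the 26364 symbols of the gene table. RNAseq was performed on A673/TR/shEF cells, a derivative of the Ewing sarcoma line A673, in which the EWSR1::FLI1 fusion acts as an oncogenic transcription factor. Cells without doxycycline kept the fusion and are called EWSR1::FLI1 high (n = 3), and cells given doxycycline at 1 µg/mL for 72 h are called EWSR1::FLI1 low (n = 3). Both groups carried the tet repressor and the doxycycline-inducible shRNA against EWSR1::FLI1 and grew under blasticidin and zeocin. The comparison asked which matrix genes changed when the fusion was depleted. All samples came from 1 cell line, and none was a doxycycline-treated line without the shRNA, so that an effect of doxycycline and an effect of the shRNA cannot be told apart. The design text speaks of independent clones whereas the sample titles number the samples as experiments, so the p-values measure only the spread between these samples, which may be technical.

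The noncollagen matrix is built by secreted glycoproteins that bind each other, collagen and cell surface integrins. Laminins assemble as trimers of an alpha, a beta and a gamma chain and form the basement membrane sheet, which nidogens and perlecan tie to collagen IV. Proteoglycans carry long sulphated sugar chains that hold water and bind growth factors, with syndecans and glypicans displaying heparan sulphate at the cell surface. Ewing sarcoma arises in bone and soft tissue, where these proteins surround the tumour cells.

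Reads assigned to genes ranged from 6980361 to 16658933 per library. Values are given as FPKM, fragments per kilobase of transcript corrected for library depth, which the authors scaled between libraries with size factors, so that levels of genes of different length can be set side by side within a library. FLI1, which reports the fusion transcript in this line, measured 11.3, 12.7 and 14.2 FPKM in the EWSR1::FLI1 high libraries and 2.91, 4.29 and 3.68 FPKM in the EWSR1::FLI1 low libraries (log2 fold change -1.57, adjusted p = 0.000676, limma). The groups thus did not overlap for the targeted transcript, and with all libraries 5 of 6 Ewing sarcoma markers fell. EWSR1::FLI1 low replicate 1 stood apart from the other libraries: its FPKM summed to 255956 against 334614 to 366060 elsewhere, and its estimated quality weight was 0.172 against 0.463 to 2.79. For the matrix genes, the results below are therefore given with and without it where it changed a call. Leaving out this replicate also brought the remaining Ewing sarcoma marker, CD99, under the adjusted p limit of 0.01 used here. The adjusted p of CD99 went from 0.0670 to 0.00951 (limma, log2 fold changes -0.53 and -0.63). Between pairs of EWSR1::FLI1 low libraries the squared differences in counts were 20.2 to 31.5 times those of sampling noise (chi-square per degree of freedom). Between pairs of EWSR1::FLI1 high libraries they were 4.25 to 6.27 times those of sampling noise.

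The promoters of the 4 genes with the largest increases are shown first, followed by those of TNC and LAMB2, 2 of the 3 other increased genes with a tandem GGAA repeat, the sequence class that EWSR1::FLI1 is known to bind. The other one, FBLN5, has 2 annotated starts with the repeat before only 1 of them, and is not shown. Each sequence is the 250 bases before the annotated start in RefSeq (assembly GRCh38.p14), 5′ to 3′ on the strand of the gene. Capitals mark matches to 4 short motifs searched in each window: the AP-1 element TGANTCA, which reads alike on both strands, the tandem GGAA repeat GGAAGGAA or its complement TTCCTTCC, the TEAD element GGAATG or its complement CATTCC, and the TATA box TATAAA on the strand of the gene only. The windows were chr13:37598769-37599018 for POSTN, chr15:48644971-48645220 for FBN1, chr6:112254568-112254817 for LAMA4, chr9:115118158-115118407 for TNC and chr3:49133051-49133300 for LAMB2, all on the minus strand, and chr5:83471494-83471743 on the plus strand for VCAN.
POSTN: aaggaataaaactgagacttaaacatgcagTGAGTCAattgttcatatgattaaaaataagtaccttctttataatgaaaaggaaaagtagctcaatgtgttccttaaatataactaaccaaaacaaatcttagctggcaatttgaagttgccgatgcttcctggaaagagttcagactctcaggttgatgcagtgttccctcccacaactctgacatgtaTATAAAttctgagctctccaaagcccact
FBN1: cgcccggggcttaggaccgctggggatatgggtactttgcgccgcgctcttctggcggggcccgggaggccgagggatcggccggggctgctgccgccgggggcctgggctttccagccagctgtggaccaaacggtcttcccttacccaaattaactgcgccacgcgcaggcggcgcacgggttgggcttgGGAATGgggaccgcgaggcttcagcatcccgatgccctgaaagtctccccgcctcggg
LAMA4: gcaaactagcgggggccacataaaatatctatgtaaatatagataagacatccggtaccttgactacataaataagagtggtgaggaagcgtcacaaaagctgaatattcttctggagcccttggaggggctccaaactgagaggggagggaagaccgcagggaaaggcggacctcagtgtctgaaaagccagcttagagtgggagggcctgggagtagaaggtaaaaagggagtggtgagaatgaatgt
VCAN: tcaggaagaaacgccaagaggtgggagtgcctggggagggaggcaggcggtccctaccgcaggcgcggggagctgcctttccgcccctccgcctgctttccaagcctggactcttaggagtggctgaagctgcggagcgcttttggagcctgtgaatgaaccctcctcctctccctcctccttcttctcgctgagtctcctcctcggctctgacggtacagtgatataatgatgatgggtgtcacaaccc
TNC: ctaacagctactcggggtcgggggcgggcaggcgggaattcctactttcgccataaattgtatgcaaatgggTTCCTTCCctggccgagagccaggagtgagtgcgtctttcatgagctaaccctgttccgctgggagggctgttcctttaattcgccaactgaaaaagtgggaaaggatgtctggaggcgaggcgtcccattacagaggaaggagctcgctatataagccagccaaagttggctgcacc
LAMB2: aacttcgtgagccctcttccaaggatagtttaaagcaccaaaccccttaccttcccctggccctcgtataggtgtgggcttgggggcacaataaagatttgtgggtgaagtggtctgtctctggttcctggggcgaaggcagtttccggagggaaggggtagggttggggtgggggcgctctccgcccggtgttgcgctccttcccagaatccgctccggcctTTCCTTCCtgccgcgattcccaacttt

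In POSTN the AP-1 element began 220 bases before the start and the TATA box 29 bases before it. FBN1 held a TEAD element 58 bases before the start. The tandem GGAA repeat began 178 bases before the start in TNC and 27 bases before it in LAMB2, where it lay on the opposite strand in both, as TTCCTTCC. None of the 4 motifs was found in the windows of LAMA4 or VCAN, which says only that these letters are not in these windows. Promoter windows were given for 40 of the 52 genes, 15 of them among those that rose, in 47 windows. AP-1 was in 5 of the 47 windows (ECM1, EMILIN2, LAMA3, LAMB3 and POSTN) against 6.57% of all 35116 windows. The tandem GGAA repeat was in 4 windows (FBLN5, FBN2, LAMB2 and TNC) against 3.06% of all windows, the TEAD element in 6 (EMILIN2, FBN1, LAMA2, PRELP, TNXB and VTN) against 11.9%, and the TATA box in 4 (ECM1, FBLN5, GPC6 and POSTN) against 6.8%. The median GC content was 66.0% in these windows and 58.0% in all windows. A match to a motif is a description of the sequence and was not tested for binding.

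Of the 52 genes, 18 rose in EWSR1::FLI1 low at an adjusted p under 0.01 (limma on log2(FPKM + 1), Benjamini-Hochberg adjustment over all 15504 genes with a mean of at least 0.5 FPKM). Among all genes tested 4.51% rose at that limit. Log2 fold changes are on this scale throughout, and fold differences are ratios of mean FPKM. No matrix gene fell by limma, none was lower at an unadjusted p under 0.05, and none fell by limma-voom, whereas 3.37% of all genes tested fell by limma and 7.88% changed in either direction. The 41 genes that reached 0.5 FPKM had a median log2 fold change of 0.94, against -0.05 for all genes tested, and 36 of the 41 had a positive value, as did 45.2% of all genes tested. Of these 41, 6 reached the limit only through their level in EWSR1::FLI1 low (MATN2, FBLN2, LUM, ASPN, GPC3 and HSPG2), and 2 of those 6, MATN2 and FBLN2, are among the 18. The other 11 genes stayed below 0.63 FPKM in every library, with 0 to 121 reads, and were not tested. For 3 of these 11 (TNXB, LAMA5 and FMOD) every EWSR1::FLI1 low library was above every EWSR1::FLI1 high library. Of all genes tested 17.5% had this order, and the share among untested genes was not computed. The order rests on few reads for FMOD, with 8, 6 and 5 in EWSR1::FLI1 high and 18, 8 and 13 in EWSR1::FLI1 low. Without EWSR1::FLI1 low replicate 1 the number that rose was 21 and 1 gene (DCN) fell, and without EWSR1::FLI1 high replicate 1, 2 or 3 it was 10, 7 and 9. Among all genes tested, 700 rose with all libraries, and this number also changed when a library was left out.

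Together the 52 genes made up 0.193% to 0.239% of all FPKM in the EWSR1::FLI1 high libraries and 0.567% to 0.766% in the EWSR1::FLI1 low libraries. FN1 alone held 41.4% to 50.6% of their sum in every library. In bulk RNA, more cells expressing a gene and more RNA per cell cannot be told apart. Every EWSR1::FLI1 low library lay above every EWSR1::FLI1 high library for 24 of the 41 genes tested, against 17.5% of all genes tested. No matrix gene had the opposite order, which 23.6% of all genes tested had.

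**Figure D1:**
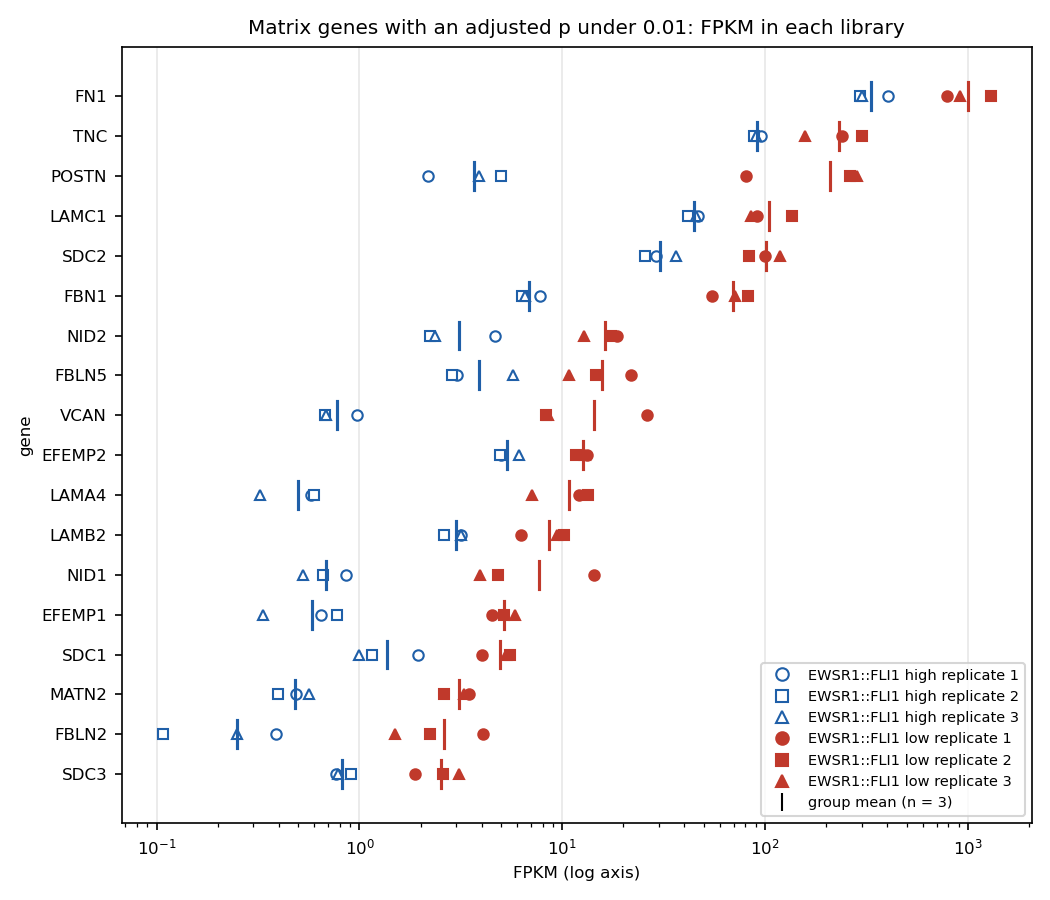
FPKM in each of the 6 libraries (x axis, log scale) for the 18 matrix genes with an adjusted p under 0.01 (y axis, ordered by mean level in EWSR1::FLI1 low). Open blue symbols are EWSR1::FLI1 high and filled red symbols EWSR1::FLI1 low, with the replicate given by the shape and group means by vertical bars. For all 18 genes the 3 red symbols lie to the right of the 3 blue symbols, from SDC3 at 2.52 FPKM to FN1 at 998 FPKM in EWSR1::FLI1 low.

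Among the adhesive and matricellular glycoproteins, 4 of 7 genes rose: FN1, TNC, POSTN and MATN2. FN1, which encodes fibronectin, the main ligand of several integrins (chr2:216225163-216300796, minus strand, GRCh37), measured 404, 292 and 300.3 FPKM in the EWSR1::FLI1 high libraries and 785, 1294 and 914 FPKM in the EWSR1::FLI1 low libraries. The groups did not overlap, and the mean went from 332 ± 62.4 to 998 ± 264 FPKM (SD, n = 3), a 3.0-fold difference (log2 fold change 1.57 ± 0.21 SE, adjusted p = 0.00159, limma). By mean level FN1 moved from rank 78 among the genes tested in EWSR1::FLI1 high to rank 2 in EWSR1::FLI1 low. The call for FN1 was lost without EWSR1::FLI1 high replicate 2 (log2 1.48, adjusted p = 0.0147, limma) and without EWSR1::FLI1 high replicate 3 (log2 1.5, adjusted p = 0.0117, limma).

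POSTN showed the largest change of the 41 genes tested. It encodes periostin, a matricellular protein that binds integrins and is abundant in periosteum (chr13:38136720-38172981, minus strand, GRCh37). POSTN measured 2.17, 4.97 and 3.90 FPKM in the EWSR1::FLI1 high libraries and 80.2, 261 and 285 FPKM in the EWSR1::FLI1 low libraries. Every treated library was far above every control library, although EWSR1::FLI1 low replicate 1 was the lowest of the 3. The mean rose 56.7-fold, from 3.68 ± 1.41 to 209 ± 112 FPKM (SD, n = 3), and the log2 fold change was 5.33 ± 0.46 SE (adjusted p = 0.000207, limma). By mean level POSTN went from rank 9175 to rank 153, and by log2 fold change it stood at rank 6 among all genes tested. Its log2 fold change was 5.92 without EWSR1::FLI1 low replicate 1.

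TNC encodes tenascin-C, a hexameric glycoprotein of tumour stroma and healing tissue. It measured 95.2, 88.4 and 90.6 FPKM in the EWSR1::FLI1 high libraries and 239, 301 and 157 FPKM in the EWSR1::FLI1 low libraries, a log2 fold change of 1.29 ± 0.24 SE (adjusted p = 0.00704, limma). The control libraries lay close together and the treated libraries were spread, with replicate 3 the lowest. The call for TNC was lost without EWSR1::FLI1 high replicate 1, 2 or 3 (adjusted p = 0.0236, 0.0427 and 0.0370, limma) and without EWSR1::FLI1 low replicate 2 (0.0197). MATN2, which encodes the filament-forming adaptor matrilin-2, was low throughout, at 0.487, 0.397 and 0.566 FPKM against 3.45, 2.61 and 3.26 FPKM. Its groups were 6.43-fold apart in the mean (log2 fold change 1.47 ± 0.16 SE, adjusted p = 0.000529, limma). ECM1, a secreted glycoprotein, was at 13.1 ± 2.66 against 16.1 ± 1.41 FPKM, with overlapping groups (adjusted p = 0.324, limma). VTN (vitronectin) and TNXB (tenascin-X) were below the limit for testing, and TNXB shares exonic bases with ATF6B and CYP21A2 and has a near-identical partial copy, so its reads are uncertain.

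Elastic fibres consist of an elastin core on a scaffold of fibrillin microfibrils, and 5 of the 10 genes of this group rose: FBN1, FBLN2, FBLN5, EFEMP1 and EFEMP2. FBN1, which encodes fibrillin-1, the main protein of microfibrils (chr15:48700510-48937918, minus strand, GRCh37), measured 7.76, 6.34 and 6.57 FPKM in the EWSR1::FLI1 high libraries and 55.0, 81.9 and 70.8 FPKM in the EWSR1::FLI1 low libraries. Its mean rose 10.1-fold, from 6.89 ± 0.760 to 69.2 ± 13.5 FPKM (SD, n = 3), with the smallest adjusted p of the 41 genes tested (log2 fold change 3.14 ± 0.20 SE, adjusted p = 5.36e-05, limma). The spread in both groups was small beside this difference. FBN2, the fibrillin best known from embryonic tissue, was at 28.6, 22.6 and 32.1 FPKM against 28.0, 20.9 and 24.2 FPKM and did not pass the test (log2 fold change -0.18, adjusted p = 0.585, limma). Per length, FBN1 thus held 20.1% ± 2.68 of the summed fibrillin FPKM in EWSR1::FLI1 high and 73.5% ± 6.75 in EWSR1::FLI1 low (SD, n = 3). The order of the 2 fibrillins was opposite in the 2 groups in every library.

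The fibulins are glycoproteins, some of which guide elastin onto microfibrils. FBLN5, which binds both elastin and integrins, measured 3.04, 2.86 and 5.69 FPKM in the EWSR1::FLI1 high libraries and 21.9, 14.6 and 10.8 FPKM in the EWSR1::FLI1 low libraries (log2 fold change 1.78 ± 0.29 SE, adjusted p = 0.00405, limma). EFEMP1 (fibulin-3) was at 0.647, 0.770 and 0.334 FPKM against 4.51, 5.16 and 5.83 FPKM, an 8.85-fold difference in the mean (log2 1.97 ± 0.18 SE, adjusted p = 0.000212, limma). The treated libraries were near each other for EFEMP1 and spread for FBLN5, where replicate 1 was the highest. EFEMP2 (fibulin-4), which is needed for elastin cross-linking, was at 4.98, 4.91 and 6.12 FPKM against 13.3, 11.7 and 12.9 FPKM (log2 1.11 ± 0.17 SE, adjusted p = 0.00258, limma). FBLN2 was at 0.388, 0.108 and 0.249 FPKM against 4.07, 2.22 and 1.5 FPKM (log2 1.47 ± 0.26 SE, adjusted p = 0.00527, limma). All 4 had non-overlapping groups. Some calls in this group were lost when a library was left out. FBLN5 was lost without EWSR1::FLI1 high replicate 1 (adjusted p = 0.0170, limma) or 2 (0.0276). EFEMP2 was lost without EWSR1::FLI1 high replicate 1 (0.0203, limma), 2 (0.0236) or 3 (0.0109). The log2 fold changes were then 1.67 and 1.64 for FBLN5 and 1.07, 1.06 and 1.19 for EFEMP2. FBLN2 was lost without EWSR1::FLI1 high replicate 1 (0.0126, limma), 2 (0.0313) or 3 (0.0257) and without EWSR1::FLI1 low replicate 2 (0.0103). FBLN2 and FBLN5 also missed the limit after quantile normalization (adjusted p = 0.0143 and 0.0136, limma).

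The remaining elastic fibre genes did not pass the test. ELN (elastin) had a mean of 3.86 ± 1.22 FPKM in EWSR1::FLI1 high and 6.2 ± 1.79 FPKM in EWSR1::FLI1 low, with overlapping groups (adjusted p = 0.150, limma). FBLN1 was at 7.17 ± 1.19 against 9.12 ± 1.19 FPKM and EMILIN1 at 21.6 ± 2.38 against 24.2 ± 4.66 FPKM (adjusted p = 0.267 and 0.641, limma). EMILIN2 had the widest spread of this group, at 6.08, 10.3 and 13.6 FPKM against 4.60, 17.2 and 20.8 FPKM, and its log2 fold change was 0.31 with all libraries and -0.06 without EWSR1::FLI1 low replicate 3 (adjusted p = 0.702 and 0.944, limma). Per length, elastin in EWSR1::FLI1 low was thus below FBLN5 and EFEMP2, whose means were 15.8 ± 5.63 and 12.6 ± 0.842 FPKM (SD, n = 3).

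**Figure D2:**
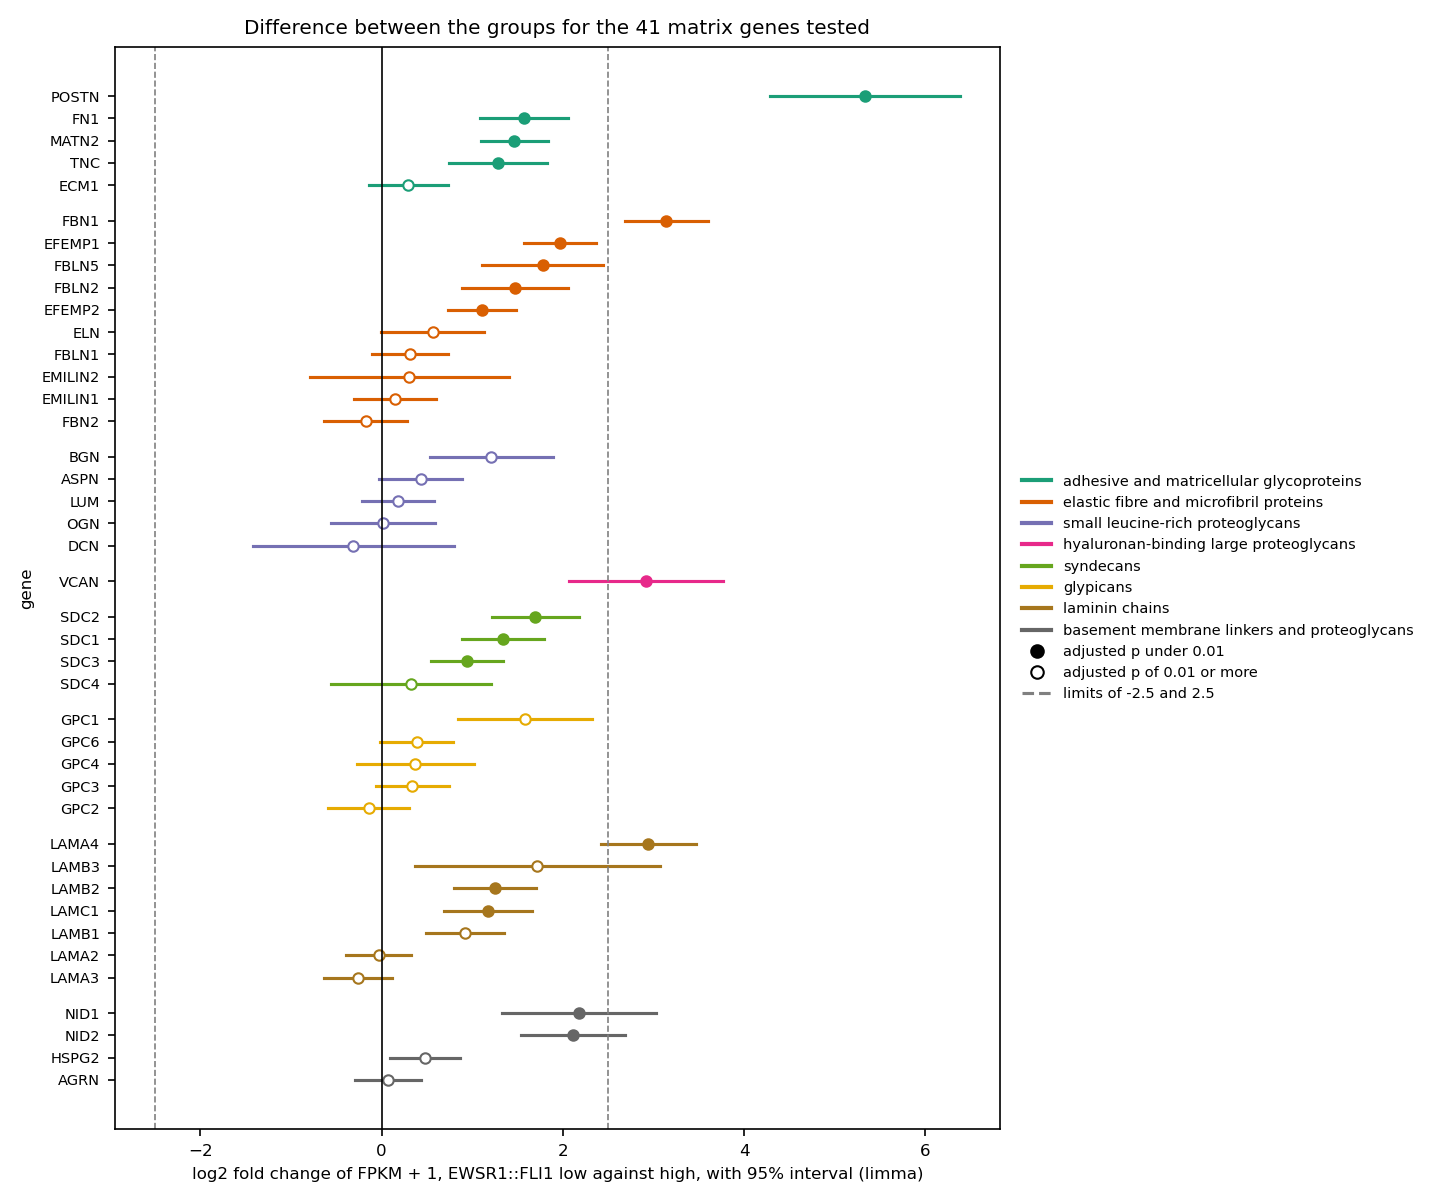
The log2 fold change of FPKM + 1, EWSR1::FLI1 low against high (x axis), for the 41 matrix genes tested (y axis), grouped and coloured by role, with horizontal bars for the 95% intervals from limma. Filled points have an adjusted p under 0.01 and dashed lines stand at -2.5 and 2.5, and 4 genes (POSTN, FBN1, VCAN and LAMA4) are filled and lie past 2.5.

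No small leucine-rich proteoglycan passed the test. These short-core proteoglycans bind collagen fibrils and growth factors. BGN (biglycan), the highest of the 7, measured 9.94, 4.83 and 8.19 FPKM in the EWSR1::FLI1 high libraries and 26.8, 13.9 and 16.6 FPKM in the EWSR1::FLI1 low libraries. The groups did not overlap and the mean was 2.5-fold higher, but the adjusted p of 0.0234 missed the limit of 0.01 (log2 fold change 1.21 ± 0.30 SE, limma). DCN (decorin), named here after its values were seen, was at 1.78, 1.25 and 1.80 FPKM against 4.39, 0.437 and 0.179 FPKM. Replicate 1 of EWSR1::FLI1 low was above all control libraries and the other 2 treated libraries were below them, and the log2 fold change was -0.31 with all libraries (adjusted p = 0.697, limma). Without EWSR1::FLI1 low replicate 1 it was -0.997 (adjusted p = 0.00592, limma), and without EWSR1::FLI1 low replicate 3 it was 0.10 (adjusted p = 0.908, limma). LUM (lumican), ASPN (asporin) and OGN (osteoglycin) had means of 0.476, 0.436 and 0.861 FPKM in EWSR1::FLI1 high and of 0.682, 0.962 and 0.966 FPKM in EWSR1::FLI1 low, none past the limit. FMOD (fibromodulin) and PRELP were not tested. Within the family BGN held 65.6% ± 4.69 of the summed FPKM in EWSR1::FLI1 high and 81.2% ± 6.99 in EWSR1::FLI1 low (SD, n = 3).

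Of the 4 large hyaluronan-binding proteoglycans, VCAN alone reached the limit for testing, and it rose. It encodes versican (chr5:82767437-82878122, plus strand, GRCh37), which forms hydrated pericellular coats with hyaluronan. VCAN measured 0.967, 0.677 and 0.686 FPKM in the EWSR1::FLI1 high libraries and 26.2, 8.31 and 8.55 FPKM in the EWSR1::FLI1 low libraries. The mean was 18.5-fold higher (log2 fold change 2.92 ± 0.37 SE, adjusted p = 0.00112, limma), and the groups were well apart, with EWSR1::FLI1 low replicate 1 far above the other treated libraries. Without that replicate the log2 fold change was 2.41 and the call was kept, but the value was then under 2.5. ACAN, BCAN and NCAN, which encode the cartilage proteoglycan aggrecan and the brain proteoglycans brevican and neurocan, ranged from 0.0730 to 0.356 FPKM over all libraries and were not tested.

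Syndecans are transmembrane heparan sulphate proteoglycans that act as coreceptors for matrix ligands and growth factors, and 3 of the 4 rose. SDC2, the highest, measured 29.0, 25.6 and 36.4 FPKM in the EWSR1::FLI1 high libraries and 99.5, 83.4 and 118 FPKM in the EWSR1::FLI1 low libraries (log2 fold change 1.70 ± 0.21 SE, adjusted p = 0.000961, limma). SDC1 was at 1.95, 1.15 and 0.995 FPKM against 4.0, 5.49 and 5.29 FPKM (log2 1.34 ± 0.20 SE, adjusted p = 0.00258, limma), and SDC3 at 0.763, 0.906 and 0.781 FPKM against 1.89, 2.60 and 3.08 FPKM (log2 0.94 ± 0.18 SE, adjusted p = 0.00744, limma). All 3 were without overlap between the groups. SDC4 was at 15.9, 17.1 and 17.0 FPKM against 10.0, 37.3 and 24.5 FPKM, so that EWSR1::FLI1 low replicate 1 was below the controls and the other treated libraries above them (log2 0.32, adjusted p = 0.606, limma). The SDC4 value was 0.82 without EWSR1::FLI1 low replicate 1 and -0.08 without EWSR1::FLI1 low replicate 2. SDC2 was lost as a call without EWSR1::FLI1 high replicate 2 (adjusted p = 0.0106, limma), and SDC1 without EWSR1::FLI1 high replicate 2 (0.0194, limma) or 3 (0.0167) and without EWSR1::FLI1 low replicate 3 (0.0126). The SDC3 call was lost when any library other than EWSR1::FLI1 low replicate 1 was left out (adjusted p from 0.0208 to 0.0365, limma) and after quantile normalization (0.0103).

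Glypicans are attached to the membrane by a lipid anchor and modulate Wnt, Hedgehog and growth factor signals, and none of the 6 passed the test. GPC6, the highest by mean in both groups, measured 10.3, 8.89 and 9.25 FPKM in the EWSR1::FLI1 high libraries and 13.7, 10.7 and 14.0 FPKM in the EWSR1::FLI1 low libraries (log2 fold change 0.39, adjusted p = 0.161, limma). GPC1 was at 2.15, 2.45 and 2.87 FPKM against 4.85, 14.4 and 11.5 FPKM. The treated libraries all lay above the controls, with replicate 1 nearest to them, and the log2 fold change of 1.58 ± 0.33 SE narrowly missed the limit (adjusted p = 0.0110, limma). Without EWSR1::FLI1 low replicate 1 GPC1 passed it (log2 2.0, adjusted p = 0.000270, limma). GPC2, GPC3 and GPC4 had log2 fold changes of -0.14, 0.34 and 0.37 with overlapping groups, and GPC5 was not tested. The share of GPC1 in the summed glypican FPKM was 14.9% ± 2.97 in EWSR1::FLI1 high and 34.3% ± 16.2 in EWSR1::FLI1 low (SD, n = 3), with overlap through the 17.0% of EWSR1::FLI1 low replicate 1.

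Laminin chains of each kind were among the genes that rose: the alpha chain LAMA4, the beta chain LAMB2 and the gamma chain LAMC1, 3 of the 10 chains. LAMA4 encodes the alpha chain typical of vessel and muscle basement membranes (chr6:112429134-112576141, minus strand, GRCh37). It measured 0.579, 0.597 and 0.324 FPKM in the EWSR1::FLI1 high libraries and 12.1, 13.3 and 7.10 FPKM in the EWSR1::FLI1 low libraries. The mean was 21.7-fold higher, 10.8 ± 3.30 against 0.50 ± 0.153 FPKM (SD, n = 3), and the log2 fold change was 2.94 ± 0.23 SE (adjusted p = 0.000120, limma). The groups were far apart in all libraries. The other alpha chains did not pass the test: LAMA3 was at 1.34 ± 0.270 against 0.942 ± 0.145 FPKM and LAMA2 at 0.661 ± 0.0857 against 0.624 ± 0.121 FPKM (adjusted p = 0.300 and 0.912, limma), and LAMA1 and LAMA5 were not tested. LAMA3, the alpha chain of epithelia, was the highest alpha chain in each EWSR1::FLI1 high library, with 43.3% ± 8.80 of the summed alpha chain FPKM. In EWSR1::FLI1 low, LAMA4 was the highest in each library, with 80.9% ± 4.38 against 16.2% ± 4.86 before (SD, n = 3).

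Summed per family, beta and gamma chains were more abundant than alpha chains in all libraries. LAMB1, the highest beta chain, measured 53.6, 60.9 and 69.0 FPKM in the EWSR1::FLI1 high libraries and 98.0, 123 and 129 FPKM in the EWSR1::FLI1 low libraries, without overlap (log2 fold change 0.92 ± 0.19 SE, adjusted p = 0.0113, limma). It passed the limit without EWSR1::FLI1 low replicate 1 (log2 1.04, adjusted p = 0.00168, limma) and after quantile normalization (log2 1.13, adjusted p = 0.000532, limma). LAMC1, the gamma chain of most laminins, was at 46.7, 41.5 and 45.6 FPKM against 91.1, 136 and 85.2 FPKM (log2 1.18 ± 0.21 SE, adjusted p = 0.00654, limma). LAMB2 was at 3.17, 2.61 and 3.18 FPKM against 6.27, 10.2 and 9.44 FPKM (log2 1.25 ± 0.20 SE, adjusted p = 0.00353, limma). Both rose without overlap of the groups. LAMB3, a chain of epithelial laminin, was at 2.2, 3.43 and 4.16 FPKM against 3.63, 32.6 and 15.7 FPKM. EWSR1::FLI1 low replicate 1 was within the control range for LAMB3 and the other 2 were above it, and the adjusted p was 0.0758 with all libraries (log2 1.71, limma) and 0.00146 without that replicate (log2 2.5, limma). LAMC1 was lost as a call without EWSR1::FLI1 high replicate 1, 2 or 3 (adjusted p = 0.0273, 0.0448 and 0.0353, limma) and without EWSR1::FLI1 low replicate 2 (0.0197, limma). LAMB2 was lost without EWSR1::FLI1 high replicate 1, 2 or 3 (adjusted p = 0.0144, 0.0263 and 0.0185, limma) and without EWSR1::FLI1 low replicate 3 (0.0148, limma). LAMC3 was not tested.

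**Figure D3:**
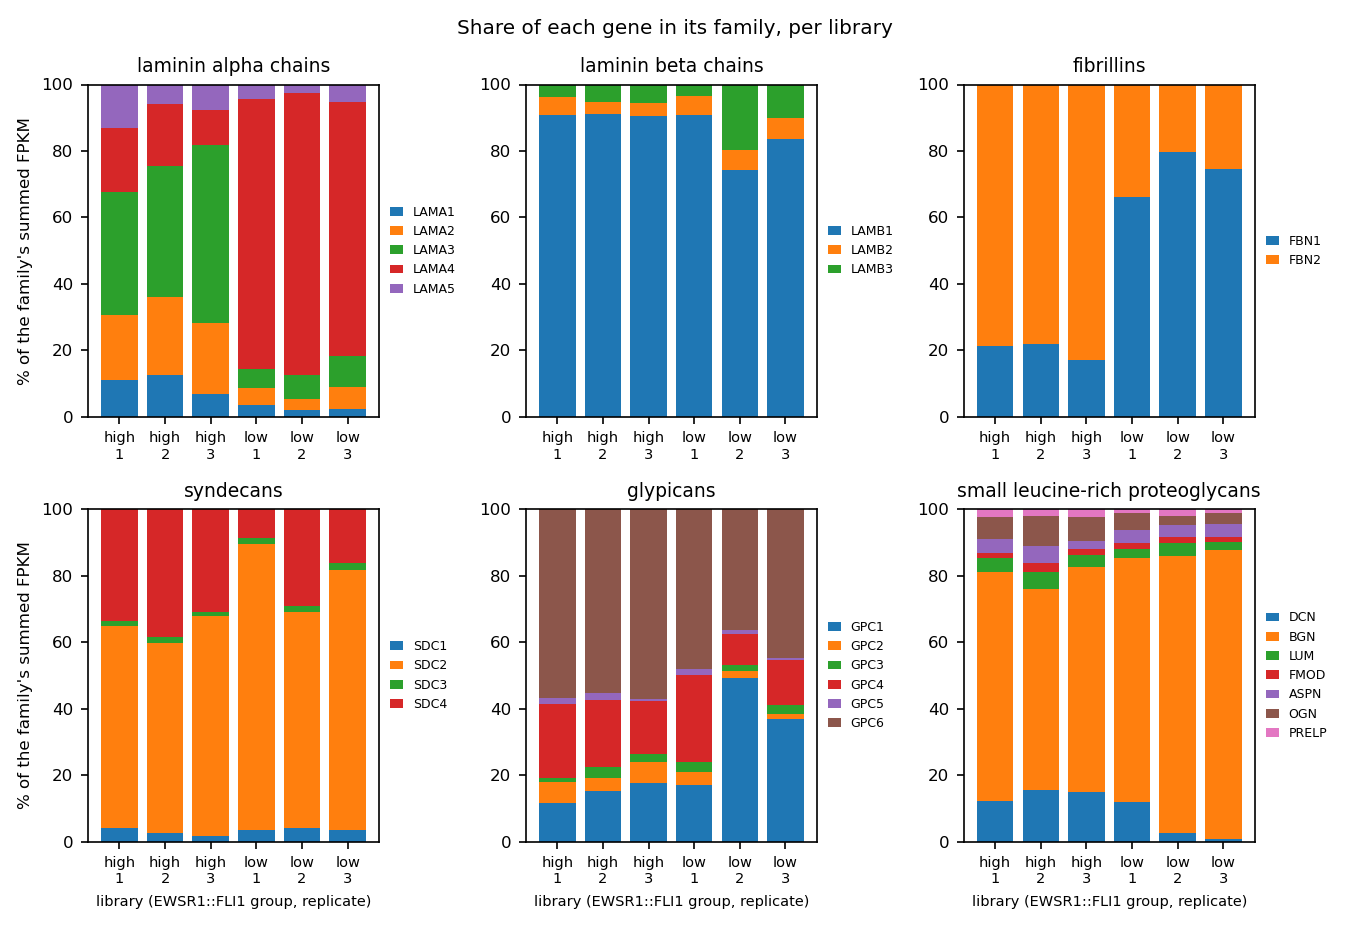
Share of each gene in the summed FPKM of its family (y axis, percent) in each of the 6 libraries (x axis), for laminin alpha and beta chains, fibrillins, syndecans, glypicans and small leucine-rich proteoglycans. LAMA4 takes up 76.3% to 85% of the alpha chains in the EWSR1::FLI1 low libraries against 10.6% to 19.4% in the EWSR1::FLI1 high libraries, and FBN1 takes up 66.3% to 79.7% of the fibrillins against 17.0% to 21.9%.

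Both nidogens, which bridge laminin and collagen IV, rose. NID1 measured 0.859, 0.661 and 0.527 FPKM in the EWSR1::FLI1 high libraries and 14.3, 4.83 and 3.92 FPKM in the EWSR1::FLI1 low libraries (log2 fold change 2.18 ± 0.37 SE, adjusted p = 0.00488, limma). NID2 was at 4.66, 2.24 and 2.35 FPKM against 18.5, 17.3 and 12.8 FPKM (log2 2.11 ± 0.25 SE, adjusted p = 0.000785, limma). The groups did not overlap for either gene, and EWSR1::FLI1 low replicate 1 was the highest library for both. NID1 was lost as a call without EWSR1::FLI1 high replicate 1, 2 or 3 (adjusted p = 0.0114, 0.0265 and 0.0264, limma) and after quantile normalization (0.0203, limma). HSPG2, which encodes perlecan, was low, at 0.366 ± 0.137 against 0.905 ± 0.188 FPKM (adjusted p = 0.0811, limma). It shares exonic bases with LDLRAD2 on the opposite strand, and whether counting used the strand is not given in the sources used here. AGRN (agrin) was at 1.40 ± 0.0504 against 1.53 ± 0.316 FPKM, and the log2 fold change was 0.07 that was -0.10 after quantile normalization (adjusted p = 0.805 and 0.666, limma).

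The study selected strongly regulated genes by an adjusted p under 0.01 and a log2 fold change beyond 2.5, with differences calculated by DESeq2. Here the same limits were put on limma values of log2(FPKM + 1), a different measure. The 4 matrix genes that rose past both were POSTN, FBN1, LAMA4 and VCAN, and 0.813% of all genes tested rose past both. With a pseudocount of 0.1 in place of 1 the number was 7, with EFEMP1, FBLN2 and NID1 added, since a pseudocount of 1 lowers the fold change of genes under a few FPKM. Without EWSR1::FLI1 low replicate 1 the number was again 4, but VCAN was below the limit at 2.41 and LAMB3 just past it at 2.5. The next genes below the limit with all libraries were NID1 at 2.18 and NID2 at 2.11. The call of 7 of the 18 genes (POSTN, MATN2, FBN1, EFEMP1, VCAN, LAMA4 and NID2) was kept in each of the 15 alternative fits, and each of the other 11 was lost in at least 1. Of these 7, MATN2 reached the limit for testing only through its level in EWSR1::FLI1 low. With no filter on low values the 8 lost were FN1, TNC, FBLN2, FBLN5, SDC3, LAMB2, LAMC1 and NID1 (adjusted p from 0.0104 to 0.0209, limma). Of the 23 tested genes that did not pass, BGN, GPC1, LAMB1, LAMB3 and HSPG2 had 95% intervals above 0, and 5 had a log2 fold change below 0 (FBN2, DCN, GPC2, LAMA2 and LAMA3).

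The 3 EWSR1::FLI1 low libraries did not rank alike across the matrix genes. Replicate 1 was the highest of the 3 for 20 of the 41 genes tested, against 25.4% of all genes tested, and the lowest for 14, against 57.0% of all genes tested. Genes highest in replicate 1 included VCAN, NID1, FBLN2, FBLN5, BGN and DCN. Genes lowest in replicate 1 included POSTN, FBN1, FN1, GPC1, LAMB2 and LAMB3. The order of the libraries thus differed between genes of the same role, such as FBLN5 and FBN1. The part of this library in the results was not tested beyond leaving it out.

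**Figure D4:**
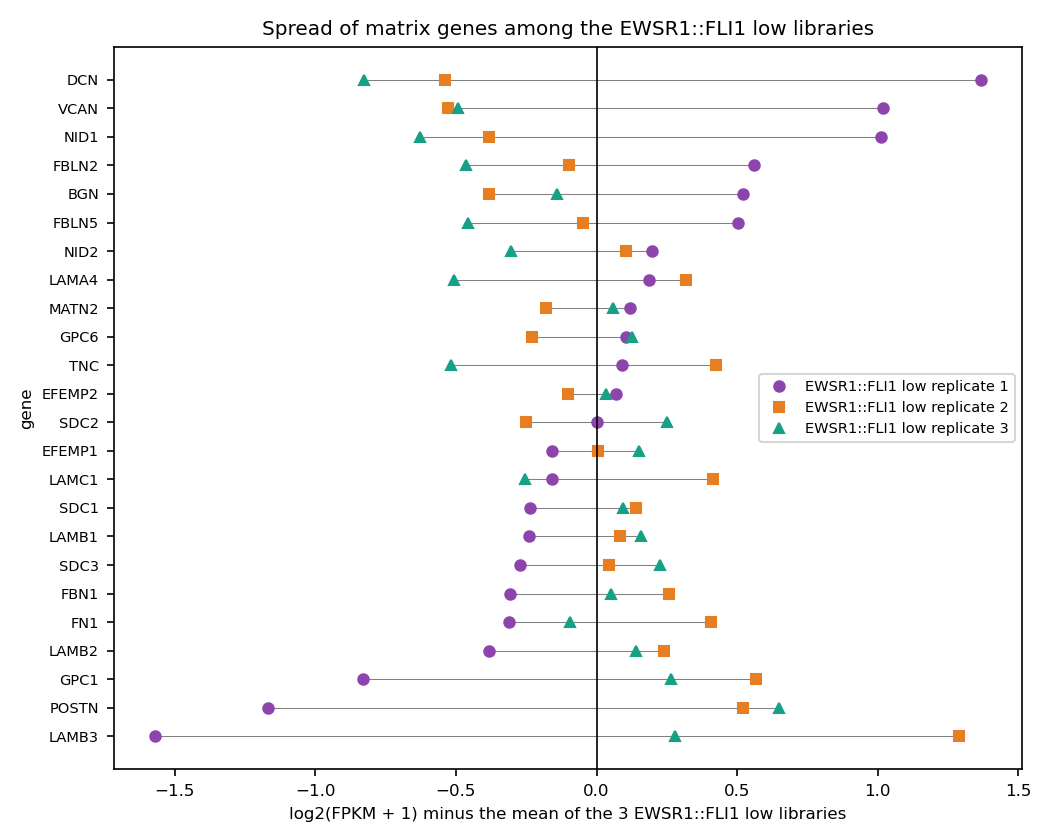
The log2(FPKM + 1) of each EWSR1::FLI1 low library minus the mean of the 3 libraries (x axis) for the matrix genes given by library in the text (y axis). FBN2, EMILIN2 and SDC4 are not drawn. Symbols and colours mark the replicate, and lines span the 3 values: replicate 1 is the highest for DCN, VCAN and NID1 at the top and the lowest for GPC1, POSTN and LAMB3 at the bottom.

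Genes that make, modify or bind these proteins were counted in 6 further lists with 104 genes, 72 of which were tested: 17 rose and 2 fell. Among all genes tested 4.51% rose and 3.37% fell, and these shares also apply to the counts for single lists below. Other matrix glycoproteins accounted for 7 of the 17, out of 21 tested. TGFBI, an integrin-binding relative of periostin, had the largest change, from 2.65 ± 0.533 to 67.9 ± 3.95 FPKM (SD, n = 3, log2 fold change 4.25, adjusted p = 8.47e-06, limma). SPARC, a collagen-binding glycoprotein of bone, went from 119.6 ± 7.52 to 419.9 ± 28.2 FPKM and its relative SPARCL1 from 1.55 ± 0.355 to 17.5 ± 2.52 FPKM (log2 1.80 and 2.86, adjusted p = 0.000184 and 5.03e-05, limma). LTBP1, which stores latent TGF-beta on microfibrils, went from 0.931 ± 0.208 to 9.99 ± 7.19 FPKM and the integrin ligand NPNT from 0.765 ± 0.143 to 3.02 ± 0.900 FPKM (log2 2.32 and 1.17, adjusted p = 0.00374 and 0.00496, limma). TGFBI, SPARC and SPARCL1 passed whichever library was left out. LTBP1 was lost without EWSR1::FLI1 high replicate 2 (adjusted p = 0.0232, limma) or 3 (0.0217) and without EWSR1::FLI1 low replicate 3 (0.0142), and NPNT when any library other than EWSR1::FLI1 low replicate 1 was left out (0.0136 to 0.0286, limma).

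The enzymes that edit heparan sulphate, the sugar chain of syndecans, glypicans and perlecan, changed in both directions, with 3 of 16 higher and 2 lower. The extracellular sulphatases that remove 6-O-sulphate rose: SULF2 from 0.314 ± 0.102 to 6.95 ± 0.503 FPKM and SULF1 from 1.87 ± 0.380 to 8.54 ± 1.33 FPKM (SD, n = 3, log2 fold changes 2.60 and 1.73, adjusted p = 3.66e-05 and 0.000411, limma). SULF2 reached the limit of 0.5 FPKM for testing only through its level in EWSR1::FLI1 low. Of the enzymes that add 6-O-sulphate, HS6ST2 rose and HS6ST1 fell (log2 1.09 and -1.01, adjusted p = 0.00944 and 0.00669, limma), and HS3ST4, a 3-O-sulphotransferase, fell by 1.75 on the log2 scale (adjusted p = 0.00127, limma). SULF1, SULF2 and HS3ST4 passed whichever library was left out. HS6ST1 and HS6ST2 were lost when any library other than EWSR1::FLI1 low replicate 1 was left out (adjusted p from 0.0155 to 0.0355 and from 0.0272 to 0.0569, limma).

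In chondroitin sulphate synthesis, the pathway that decorates versican, 3 of 14 genes rose. CHPF, a subunit of the chain polymerase, went from 2.66 ± 0.161 to 9.95 ± 2.38 FPKM and the sulphotransferase CHST11 from 2.28 ± 0.566 to 11.7 ± 5.39 FPKM (SD, n = 3, log2 fold changes 1.56 and 1.88, adjusted p = 0.00107 and 0.00320, limma). The chain-initiating enzyme CSGALNACT1 was close to the limit (log2 1.09, adjusted p = 0.00976, limma) and missed it without any 1 of the libraries except EWSR1::FLI1 low replicate 3 (adjusted p from 0.0109 to 0.0487, limma). CHPF was lost without EWSR1::FLI1 high replicate 2 (0.0105, limma), and CHST11 without EWSR1::FLI1 high replicate 1, 2 or 3 (0.0117, 0.0129 and 0.0207, limma) or EWSR1::FLI1 low replicate 3 (0.0155). PXYLP1, a phosphatase acting on the linker that joins these chains to their core proteins, was 1 of 6 linker genes tested that rose (log2 1.64, adjusted p = 0.000377, limma).

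Among 8 tested genes of hyaluronan metabolism, the ligand of versican, CD44 and CEMIP rose. CD44, the main hyaluronan receptor, measured 4.58, 6.09 and 8.51 FPKM in the EWSR1::FLI1 high libraries and 28.6, 117 and 96.6 FPKM in the EWSR1::FLI1 low libraries (log2 fold change 3.28, adjusted p = 0.00207, limma). All treated libraries were above all controls, with replicate 1 the lowest of the 3. CEMIP, which degrades hyaluronan, went from 0.157 ± 0.0503 to 3.13 ± 1.71 FPKM (log2 1.76, adjusted p = 0.00242, limma). It reached the limit of 0.5 FPKM for testing only through its level in EWSR1::FLI1 low. CD44 was lost without EWSR1::FLI1 high replicate 2 (adjusted p = 0.0144, limma) or EWSR1::FLI1 low replicate 3 (0.0133), and CEMIP without EWSR1::FLI1 high replicate 2 (0.0142, limma) or 3 (0.0146). Of 7 laminin receptor genes tested, ITGA6, an integrin alpha subunit that binds laminin, rose from 4.54 ± 0.316 to 15.5 ± 6.31 FPKM (log2 1.49, adjusted p = 0.00953, limma), a call that was lost when any library other than EWSR1::FLI1 low replicate 1 was left out (0.0247 to 0.0459, limma).

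Markers of other cell types were low in all libraries. The epithelial markers summed to 0.958 to 2.09 FPKM in EWSR1::FLI1 high and to 2.45 to 7.80 FPKM in EWSR1::FLI1 low. CLDN4 gave 0.921, 6.19 and 3.01 FPKM of the latter sums in replicates 1, 2 and 3, against 0 to 0.212 FPKM in EWSR1::FLI1 high. The endothelial markers summed to 0.746 to 1.04 and 1.32 to 2.34 FPKM, and the haematopoietic markers to 0.789 to 1.62 and 1.35 to 2.71 FPKM. Of these 14 markers 4 were high enough to be tested and none passed with all libraries, and no marker was at 0 in every library. CLDN4, PECAM1 (endothelial) and HBB (haematopoietic) had non-overlapping groups, higher in EWSR1::FLI1 low (adjusted p = 0.0178, 0.0333 and 0.188, limma). The untested haematopoietic marker CD14 had the same order, with 0 to 8 reads per library against 1 to 6 for HBB. Every EWSR1::FLI1 low library was above every EWSR1::FLI1 high library for 17.5% of all genes tested. CLDN4 passed in 5 of 15 alternative fits, among them that without EWSR1::FLI1 low replicate 1 (log2 2.24, adjusted p = 0.000857, limma), and PECAM1 passed with limma-voom (adjusted p = 0.00995) and with quality weights (0.0008). The part of such cells in the results was not tested. Of the 3 genes given as markers of the matrix set, FN1 and FBN1 rose and BGN did not pass the limit.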

How the data were processed

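Total RNA of 6 samples was depleted of ribosomal RNA and sequenced after ScriptSeq library preparation. According to the study's methods and the submitters' processing notes, the authors aligned reads to GRCh37 with STAR 2.5.0b, and bedtools 2.17.0, Cufflinks 2.2.1 and DESeq2 1.6.3 are also named. The authors deposited FPKM values for each symbol in each library, and a table whose mean normalized count (a signal averaged by the authors over the 6 libraries) was used here only to recover reads. All values came out whole within a tolerance of 0.1 reads. The other columns of that table hold the authors' own fold changes and p-values and were not used.

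Genes with a mean of at least 0.5 FPKM were tested as log2(FPKM + 1) with limma 3.58.1 (lmFit, eBayes with trend, R 4.3.3), EWSR1::FLI1 low against high, with Benjamini-Hochberg adjustment over all genes tested. A pseudocount of 1 understates changes of low genes. Genes were called at an adjusted p under 0.01, and the study's further limit was a log2 fold change of 2.5. The steps were tested on simulated data. Values are given by library for genes past the adjusted p limit, with a log2 fold change of at least 1 in size, or highest in their role group, and also for DCN, FBN2, EMILIN2 and SDC4, which were chosen after their values were seen. Up to 5 genes are named from each further list. Alternatives were another pseudocount, other filters, scalings and weights, a replicate block, limma-voom on recovered reads and leaving out each library. The 52 genes, the lists and the tests were chosen with earlier results of these data known. Gene positions are from GENCODE on GRCh37 and promoters from RefSeq on GRCh38.p14. Figures were drawn with matplotlib 3.10.9. Replicates of a group differed by more than the sampling noise of their counts.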

Additional observations from a re-analysis of the deposited data

How the results depend on the processing

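Over 15 alternative fits, 529 of the values of the 41 matrix genes tested kept their direction and their side of the limit, 47 (11 genes) lost the call, 18 (7 genes) gained one and 14 (7 genes) changed sign. FLI1 kept its call in each fit. The cause of these changes was not tested. Leaving out a library did not always weaken calls: without EWSR1::FLI1 low replicate 1, 21 matrix genes rose, against 18 with all libraries. The count over all genes tested moved as well, from 700 higher with all libraries to between 287 and 1452 with 1 library left out. With no filter on low values, 10 matrix genes rose, all tested genes gave 456 higher and 297 lower, and the further lists gave 10 higher and 1 lower. The number past both limits was 7 with a pseudocount of 0.1 and 8 with limma-voom, which gave 20 matrix genes higher and, among all genes tested, 945 higher and 784 lower. Quantile normalization gave 15 matrix genes higher and 992 higher and 1000 lower in all. Sample quality weights gave 23 matrix genes higher, 2488 higher and 2257 lower in all, and 38 higher and 7 lower in the further lists. Leaving out 1 library gave 7 to 21 matrix genes higher and 0 to 1 lower, 287 to 1452 higher and 156 to 726 lower among all genes tested, and 6 to 28 higher and 1 to 4 lower in the further lists.

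OGN was -0.0702 with a pseudocount of 0.1, -0.0535 after quantile normalization, -0.144 with limma-voom and -0.296 with quality weights, AGRN was -0.0967 after quantile normalization, and GPC4 was -0.111 with quality weights. Leaving out 1 library, the log2 fold change ranged from -0.281 to 0.208 for OGN, from -0.0302 to 0.130 for AGRN, from -0.0756 to 0.822 for SDC4, from -0.0907 to 0.0146 for LAMA2, from -0.0624 to 0.917 for EMILIN2 and from -0.997 to 0.0994 for DCN.

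Samples of the same replicate number in the 2 groups deviated together with correlations of 0.27, 0.09 and 0.12. For samples of different number the correlations ranged from -0.29 to 0.19. Not every sample correlated best with its own number, so the numbers were not used to pair samples in the main fit. With a replicate block 21 matrix genes rose (BGN, GPC1 and LAMB1 in addition), 916 rose and 786 fell among all genes tested, and 4 genes of the further lists fell. The 11 genes under the limit of 0.5 FPKM, with at most 121 reads, were not tested, so that no call could be made for them.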
